A study of Mus musculus with 2 samples.

Results

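The 45 genes described here encode proteins that drive a cell into mitosis, build the spindle, hold chromosomes to it and split the cell at the end. They were chosen by symbol, for their roles, and all 45 were found among the 24421 gene symbols of the study and grouped here into 8 roles. Cells enter mitosis when B-type cyclins activate the kinase Cdk1. The spindle assembly checkpoint then holds the anaphase-promoting complex, a ubiquitin ligase, in check until every kinetochore has bound spindle microtubules, after which the ligase marks securin and the cyclins for destruction, sister chromatids part and the cell divides. Most of these genes are transcribed in G2 and M phase, so that in a cell mixture their RNA is a common readout of how many cells are cycling.

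The study asked how a mammary tumor alters granulocyte-monocyte progenitors (GMPs), the bone marrow cells that give rise to granulocytes and monocytes. RNA was sequenced in bulk from 1 library of GMPs of female non-tumor-bearing mice (NTB-GMP) and 1 library of GMPs of female mice with orthotopic 4T1 tumors, grown from a mouse mammary carcinoma line (4T1-GMP). The labels give both groups an F1 semi-syngeneic H-2b/d background, name no engineered allele in either, and give neither the age of the mice nor the number pooled in a library. The paper's methods describe 4T1 tumors in BALB/c mice. With 1 library per group there was no replicate error and no test between conditions. Each interval given is a 95% Clopper-Pearson interval on the reads of the libraries. It compares these libraries and covers counting error only. It treats each read as an independent molecule, which PCR reads without molecular identifiers are not, so it can be too narrow.

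Values are RPKM, read counts divided by gene length and by library size, so levels of different genes can be set side by side. The RPKM were divided by library sizes of 10180365 for NTB-GMP and 30016263 for 4T1-GMP. The precursor of ribosomal RNA, Rn45s, took 17.0% and 6.98% of these reads, and leaving it out shifts the log2 ratio of the RPKM of every gene by -0.16, or somewhat less for low genes where a constant is added to the RPKM. A log2 ratio here is the difference of log2(RPKM + 0.1), 4T1-GMP minus NTB-GMP, which understates the change of low genes, and a difference of at least 1.5-fold, 0.58 on the log2 scale, was taken as the call. Of all symbols, 10378 reached a mean RPKM of 1 and served as the background, and all 45 mitotic genes were among them.

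Markers of the sorted cells were abundant in both libraries. The summed level of 16 GMP and primary granule markers was 12626 in NTB-GMP against 19241 RPKM in 4T1-GMP, with Mpo, myeloperoxidase, at 5163 in NTB-GMP against 5625 RPKM in 4T1-GMP and Ms4a3 at 479 in NTB-GMP against 1220 RPKM in 4T1-GMP. Of these 16, 12 were higher and 4 lower in 4T1-GMP. Kit was lower, at 78.5 in NTB-GMP against 49.1 RPKM in 4T1-GMP, as was Cd34, at 154 in NTB-GMP against 59.4 RPKM in 4T1-GMP. Fcgr3 was lower too, at 53.1 in NTB-GMP against 28.6 RPKM in 4T1-GMP. Fcgr2b was higher, at 47.3 in NTB-GMP against 64.6 RPKM in 4T1-GMP. Markers of other cells differed too. The summed level of 16 secondary granule and mature neutrophil markers was 525 in NTB-GMP against 4106 RPKM in 4T1-GMP, and all 16 were higher in 4T1-GMP. The sum of 14 monocyte and dendritic cell markers was 469 in NTB-GMP against 256 RPKM in 4T1-GMP, all 14 being lower, and that of 8 mast cell, basophil and eosinophil markers was 1858 in NTB-GMP against 663 RPKM in 4T1-GMP, all 8 being lower. Stem and early progenitor markers summed to 64.7 in NTB-GMP against 25.6 RPKM in 4T1-GMP, with 6 of 10 lower and 4 higher. Gata2 was at 29.5 in NTB-GMP against 5.14 RPKM in 4T1-GMP and Meis1 at 17.1 in NTB-GMP against 4.73 RPKM in 4T1-GMP. Hoxa9 was at 10.1 in NTB-GMP against 10.5 RPKM in 4T1-GMP. Erythroid markers summed to 56.8 in NTB-GMP against 77.2 RPKM in 4T1-GMP, but of 17 only 1 was higher and 10 were lower. The higher one, Tfrc, the transferrin receptor that dividing cells of many kinds carry, made up 36.6 in NTB-GMP against 73.0 RPKM in 4T1-GMP. All 6 hemoglobin genes in the list were listed at 0 in both libraries. Of 7 mammary epithelial and 4T1 tumor markers, Krt5, Krt14, Krt19 and Epcam were also listed at 0 in both. Krt18 was at 12.8 in NTB-GMP against 8.90 RPKM in 4T1-GMP, Cdh1 at 5.36 in NTB-GMP against 1.04 RPKM in 4T1-GMP and Krt8 at 0.0544 in NTB-GMP against 0.111 RPKM in 4T1-GMP. Megakaryocyte markers summed to 15.8 in NTB-GMP against 5.71 RPKM in 4T1-GMP, with 3 of 6 higher and 3 lower. Most of that sum was Itga2b, at 12.8 in NTB-GMP against 4.43 RPKM in 4T1-GMP. Lymphocyte markers summed to 16.3 in NTB-GMP against 14.7 RPKM in 4T1-GMP, with 7 of 12 higher and 4 lower. Most of that sum was Cd79b, at 14.7 in NTB-GMP against 12.4 RPKM in 4T1-GMP. The part of these cell type differences in the values of the mitotic genes was not tested. In bulk RNA, a difference in the number of cells in mitosis and one in the RNA per mitotic cell cannot be told apart.

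The mitotic genes were well expressed in both libraries and, as a list, somewhat higher in 4T1-GMP. Their median level was 25.7 RPKM for NTB-GMP and 31.0 RPKM for 4T1-GMP, beside 12.1 and 12.3 RPKM over all tested genes. Of the 45, 36 were higher in 4T1-GMP, a share of 80.0% against 54.7% of all tested genes. The median log2 ratio was 0.21, with quartiles at 0.06 and 0.37 and extremes at -1.03 and 0.86, against a median of 0.05 over all tested genes. With the Rn45s reads left out of the library sizes, 25 of the 45 were higher, against 39.2% of all tested genes, and the medians were 0.04 and -0.11. The 11 genes that were higher only with these reads counted were Anln, Birc5, Cdca8, Cenpe, Ect2, Kif11, Kif22, Prc1, Racgap1, Spc25 and Top2a. Whatever the common scaling of the libraries, 36 of the 45 lay above the median of all tested genes.

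Large differences were few, and most were in genes of mitotic entry and of the anaphase-promoting complex. Pttg1, Ube2c, Cdc20, Ccnb1, Cdc25c and Aurka were at least 1.5-fold higher in 4T1-GMP, 6 of 45 or 13.3% against 9.8% of all tested genes. Cdc25b was at least 1.5-fold lower, 1 of 45 against 11.6%, and Cenpf stood just inside that limit at 1.49-fold lower. The counting interval lay above 0 for 27 genes, 60.0% against 36.2% of all tested genes, below 0 for 7 genes, against 28% of all tested genes, and it held 0 for 11. More reads give a narrower interval, and the 45 genes had a higher median level than all tested genes. These shares were not matched for level. With the Rn45s reads left out, 2 of 45 (Pttg1 and Ube2c) were at least 1.5-fold higher against 5.73% of all tested genes, a share near that background. On that scale 2 of 45 (Cdc25b and Cenpf) were at least 1.5-fold lower against 17% of all tested genes, and the interval lay above 0 for 16 of the 45 against 22.2%. After quantile normalization of the libraries, 28 of the 45 were higher against 50.5% of all tested genes. Then 2 of 45 (Pttg1 and Cdc25c) were at least 1.5-fold higher against 9.48%, and 2 of 45 (Cdc25b and Cenpf) were at least 1.5-fold lower against 10.3%. The genes were covered by 116 to 13904 reads in NTB-GMP and by 385 to 38905 reads in 4T1-GMP, so the interval is widest for the low genes of the shallower library.

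**Figure D1:**
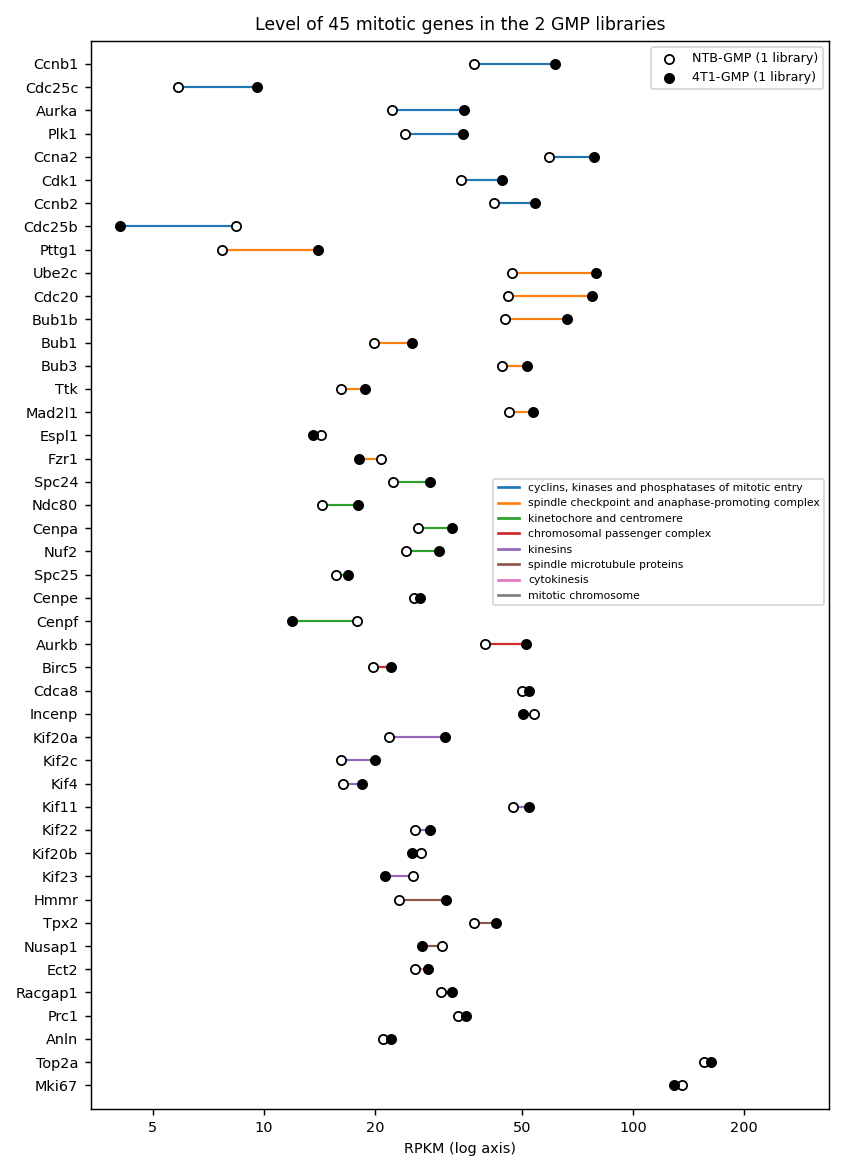
RPKM of the 45 mitotic genes on a log axis, by role (line colour), with 1 open point for NTB-GMP and 1 filled point for 4T1-GMP per gene. Top2a and Mki67 stand above all others in both libraries, and Cdc25b, Pttg1 and Cdc25c are the lowest in NTB-GMP.

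**Figure D2:**
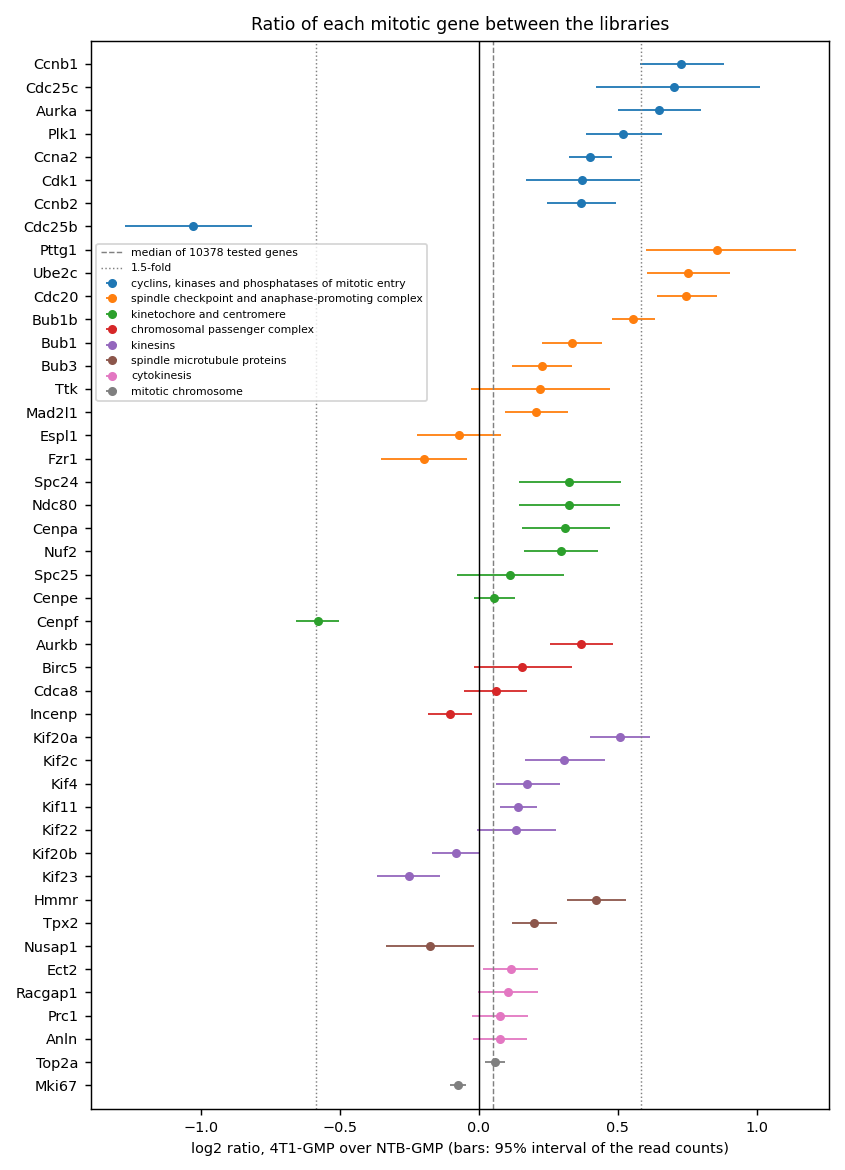
Log2 ratio of each gene, 4T1-GMP over NTB-GMP, as points with the 95% interval of the read counts as bars, coloured by role; the dashed line is the median of all tested genes and the dotted lines mark 1.5-fold. Of 45 points, 36 lie right of 0, from Pttg1 at 0.86 down to Cdc25b at -1.03.

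The promoters of the genes with the largest differences are shown because late cell cycle genes are known for a pair of promoter elements. These are the cell cycle genes homology region (CHR), which the Lin54 subunit of the MuvB complex binds, and the CCAAT box, which the factor NF-Y binds. The windows, from RefSeq on GRCm38.p6, run from 250 bases before the annotated start to 50 bases after it, on the strand of the gene. They were searched on both strands for TTTGAA or TTCGAA, taken as the CHR, and for CCAAT. These words do not need to lie apart and may overlap. Other forms of the elements were not searched for, so a window without a match may still hold one. Capitals mark every match. A match is a description of the letters and no evidence of binding. The windows of genes higher in 4T1-GMP are Cdc20 (chr4:118437294-118437593, minus strand), Ube2c (chr2:164769679-164769978, plus strand), Ccnb1 (chr13:100786437-100786736, minus strand), Aurka (chr2:172370521-172370820, minus strand) and Pttg1 (chr11:43425932-43426231, minus strand). Those of genes lower in 4T1-GMP are Cdc25b (chr2:131186698-131186997, plus strand) and Cenpf (chr1:189688037-189688336, minus strand). Cdc25c, the remaining gene at least 1.5-fold higher, is named only.
Cdc20: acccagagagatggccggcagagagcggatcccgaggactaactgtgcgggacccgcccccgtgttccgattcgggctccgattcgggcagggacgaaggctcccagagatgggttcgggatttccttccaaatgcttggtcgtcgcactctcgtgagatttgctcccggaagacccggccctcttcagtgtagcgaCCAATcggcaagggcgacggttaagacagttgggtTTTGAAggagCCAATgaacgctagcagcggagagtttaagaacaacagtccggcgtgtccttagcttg
Ube2c: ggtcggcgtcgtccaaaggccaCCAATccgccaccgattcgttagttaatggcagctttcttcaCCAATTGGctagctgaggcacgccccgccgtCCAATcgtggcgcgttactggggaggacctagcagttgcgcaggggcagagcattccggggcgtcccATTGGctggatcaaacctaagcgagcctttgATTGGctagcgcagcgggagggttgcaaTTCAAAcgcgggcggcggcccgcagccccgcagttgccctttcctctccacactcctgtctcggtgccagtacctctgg
Ccnb1: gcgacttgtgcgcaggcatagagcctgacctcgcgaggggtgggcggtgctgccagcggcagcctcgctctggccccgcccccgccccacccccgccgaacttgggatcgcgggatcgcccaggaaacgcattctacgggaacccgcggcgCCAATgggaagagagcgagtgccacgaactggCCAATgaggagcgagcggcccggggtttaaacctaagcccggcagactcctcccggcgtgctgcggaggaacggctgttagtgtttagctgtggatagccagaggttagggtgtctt
Aurka: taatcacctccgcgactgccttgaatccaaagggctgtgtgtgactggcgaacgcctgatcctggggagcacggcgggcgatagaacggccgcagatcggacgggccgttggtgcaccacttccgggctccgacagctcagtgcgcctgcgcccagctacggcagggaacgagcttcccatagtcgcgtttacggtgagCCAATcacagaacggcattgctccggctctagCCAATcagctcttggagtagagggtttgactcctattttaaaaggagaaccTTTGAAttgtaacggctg
Pttg1: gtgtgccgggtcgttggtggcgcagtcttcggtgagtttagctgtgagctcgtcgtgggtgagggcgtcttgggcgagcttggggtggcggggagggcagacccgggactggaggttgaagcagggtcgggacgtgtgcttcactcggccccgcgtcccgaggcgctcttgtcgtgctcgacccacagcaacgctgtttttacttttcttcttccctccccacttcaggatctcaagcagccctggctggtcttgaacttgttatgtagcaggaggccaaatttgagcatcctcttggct
Cdc25b: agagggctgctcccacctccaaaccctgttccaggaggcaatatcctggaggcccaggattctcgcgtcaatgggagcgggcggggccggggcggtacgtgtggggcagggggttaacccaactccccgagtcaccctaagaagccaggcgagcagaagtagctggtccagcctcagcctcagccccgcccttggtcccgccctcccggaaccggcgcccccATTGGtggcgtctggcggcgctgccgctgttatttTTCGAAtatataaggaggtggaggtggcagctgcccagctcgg
Cenpf: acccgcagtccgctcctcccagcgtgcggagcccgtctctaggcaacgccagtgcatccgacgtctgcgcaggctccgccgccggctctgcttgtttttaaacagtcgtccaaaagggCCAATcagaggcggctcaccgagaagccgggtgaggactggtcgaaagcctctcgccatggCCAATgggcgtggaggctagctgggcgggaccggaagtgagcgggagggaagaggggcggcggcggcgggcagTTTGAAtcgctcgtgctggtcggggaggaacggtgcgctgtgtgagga

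In these windows, Cdc20 held 1 CHR match, 18 bases before the start, and Ube2c held 1, 29 bases before it. That of Aurka lay 32 bases after the start, that of Cdc25b 7 bases after it and that of Cenpf 2 bases after it. Ccnb1 held 2 CCAAT matches and no CHR match, and Pttg1 held neither. Genes of both directions thus carried the CHR letters, and so did most of the list. Of the 45 genes, 38 had a window, 41 windows in all since 3 genes had several. A CHR match stood in 33 of the 41 windows, 80.5%, against 19.2% of all 32851 windows and 13.99% of the windows of tested genes. Within 50 bases of the start the shares were 73.2% and 5.31% of all windows. CCAAT stood in 32 of the 41, 78.0%, against 37.4% of all windows, and both stood together in 29 of the 41, 70.7%, against 7.52%. No CHR match was found in the windows of Birc5, Ccnb1, Cenpe, Fzr1, Mad2l1, Nuf2, Nusap1 and Pttg1. The ratio between the libraries was close in genes with and without the match, although only 8 genes were without. The 30 genes with a CHR match had a median log2 ratio of 0.16 and 24 were higher in 4T1-GMP. The 8 genes without had a median of 0.18 and 6 were higher. Of all tested genes with a window, 53.1% were higher with a CHR match and 55.1% without. Their medians were 0.04 and 0.05.

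**Figure D3:**
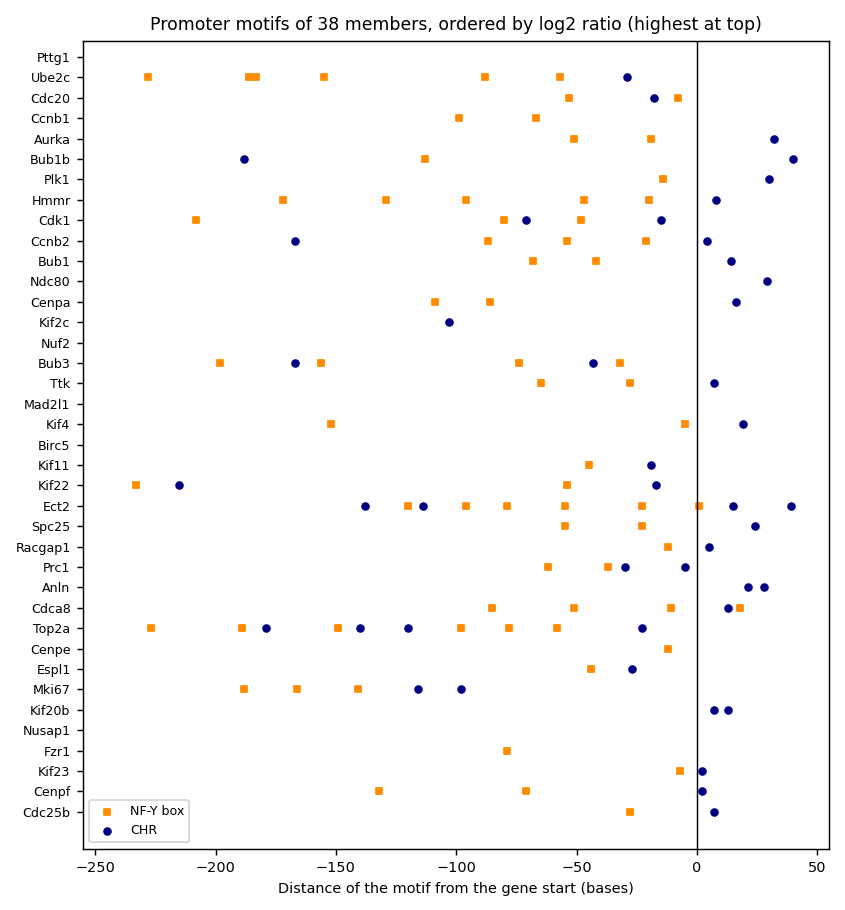
Distance in bases of each CHR match (blue) and each CCAAT match (orange, named for NF-Y) from the annotated start, in the 38 mitotic genes with a promoter window, ordered by log2 ratio with the highest at the top. The CHR matches crowd around the start, in 30 of 41 windows within 50 bases of it.

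Genes of mitotic entry were the role with the highest median, 0.46, and 7 of the 8 were higher in 4T1-GMP, each with an interval above 0 (median 0.30 without the Rn45s reads, still 7 of 8). Ccnb1 encodes cyclin B1, the main partner of Cdk1 in mitosis, and was at 37.0 in NTB-GMP against 61.3 RPKM in 4T1-GMP, from 436 and 2131 reads. Its log2 ratio was 0.73 (interval 0.58 to 0.88), or 1.66-fold higher in 4T1-GMP. Ccnb2, for cyclin B2, was at 42.0 in NTB-GMP against 54.3 RPKM in 4T1-GMP, a log2 ratio of 0.37 (interval 0.25 to 0.50). The smaller difference of Ccnb2 was accompanied by similar ones in the other cyclin and in the kinase. Ccna2, for cyclin A2, which acts in S phase and at the start of mitosis, was at 59.3 in NTB-GMP against 78.4 RPKM in 4T1-GMP, a log2 ratio of 0.40 (interval 0.32 to 0.48). Cdk1, the kinase that these cyclins activate, was at 34.1 in NTB-GMP against 44.1 RPKM in 4T1-GMP, a log2 ratio of 0.37 (interval 0.17 to 0.58). The cyclins and Cdk1 were therefore higher together, with Ccnb1 the furthest apart between the libraries. Aurka, the kinase that matures centrosomes, was at 22.2 in NTB-GMP against 34.9 RPKM in 4T1-GMP, from 447 and 2067 reads, a log2 ratio of 0.65 (interval 0.50 to 0.80). Plk1, the kinase that helps to switch on Cdk1 and acts at centrosomes and kinetochores, was at 24.1 in NTB-GMP against 34.6 RPKM in 4T1-GMP, a log2 ratio of 0.52 (interval 0.38 to 0.66).

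The Cdc25 phosphatases, which remove the inhibitory phosphates from Cdk1 and so allow entry into mitosis, went opposite ways. Cdc25c was at 5.86 in NTB-GMP against 9.60 RPKM in 4T1-GMP, from 116 and 560 reads, with a log2 ratio of 0.70 (interval 0.42 to 1.01). Cdc25b was at 8.42 in NTB-GMP against 4.07 RPKM in 4T1-GMP, from 270 and 385 reads, with a log2 ratio of -1.03 (interval -1.28 to -0.82), or 2.04-fold lower in 4T1-GMP. Their intervals lay on opposite sides of 0, and Cdc25b, the higher of the pair in NTB-GMP, was the lower in 4T1-GMP. The exons of Cdc25b overlap those of Spef1 on the other strand, and those of Cdc25c overlap Gm3550. Whether the counting used strand is not given in the sources used here, so reads of such pairs cannot be told apart. The same holds for Ccna2 with Exosc9, Cdca8 with 9930104L06Rik, Kif4 with Pdzd11 and Prc1 with Rccd1.

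In the role of the spindle checkpoint and the anaphase-promoting complex, 8 of 10 genes were higher in 4T1-GMP, with a median log2 ratio of 0.28 (0.12 without the Rn45s reads, still 8 of 10). The largest differences were in the genes that act on the ligase or are destroyed by it. Cdc20, the activator that turns the ligase on in mitosis and that the checkpoint holds, was at 45.9 in NTB-GMP against 77.1 RPKM in 4T1-GMP, from 834 and 4131 reads. Its log2 ratio was 0.75 (interval 0.64 to 0.86), or 1.68-fold higher. Ube2c, the ubiquitin-conjugating enzyme that starts the chains, was at 47.0 in NTB-GMP against 79.1 RPKM in 4T1-GMP, from 445 and 2211 reads, a log2 ratio of 0.75 (interval 0.61 to 0.90). Both stood among the 5 highest of the 45 genes in 4T1-GMP, where Ube2c was 3rd and Cdc20 5th, against 7th and 9th in NTB-GMP. Pttg1, securin, which keeps separase inactive until it is destroyed, was at 7.69 in NTB-GMP against 14.01 RPKM in 4T1-GMP, from 136 and 731 reads, a log2 ratio of 0.86 (interval 0.60 to 1.14) and the highest of the list. Espl1, separase itself, the protease that cuts cohesin, was at 14.3 in NTB-GMP against 13.6 RPKM in 4T1-GMP, a log2 ratio of -0.07 (interval -0.22 to 0.08). Fzr1, the activator that takes over from Cdc20 at the end of mitosis and in G1, was at 20.8 in NTB-GMP against 18.1 RPKM in 4T1-GMP, a log2 ratio of -0.20 (interval -0.35 to -0.04). Separase and the late activator were thus the only genes of this role not higher in 4T1-GMP, and only the interval of Fzr1 lay below 0. The exons of Cdc20 overlap Elovl1, those of Ube2c overlap Tnnc2 and those of Fzr1 overlap Mfsd12, each on the other strand.

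The checkpoint proteins themselves differed less. Bub1b, for BubR1, a part of the complex that inhibits Cdc20, was at 45.1 in NTB-GMP against 66.3 RPKM in 4T1-GMP, a log2 ratio of 0.56 (interval 0.48 to 0.63), close to the limit of the call. Bub1, a kinetochore kinase of the checkpoint, was at 19.9 in NTB-GMP against 25.1 RPKM in 4T1-GMP, a log2 ratio of 0.33 (interval 0.23 to 0.44). Bub3, which brings both to the kinetochore, was at 44.1 in NTB-GMP against 51.6 RPKM in 4T1-GMP, a log2 ratio of 0.23 (interval 0.12 to 0.33). The difference of Bub1b exceeded those of its partners, its interval lying above theirs. Mad2l1, for Mad2, which binds Cdc20 in the inhibitory complex, was at 46.2 in NTB-GMP against 53.4 RPKM in 4T1-GMP, a log2 ratio of 0.21 (interval 0.09 to 0.32). Ttk, the Mps1 kinase that starts the checkpoint signal, was at 16.2 in NTB-GMP against 18.8 RPKM in 4T1-GMP, a log2 ratio of 0.22 (interval -0.03 to 0.47), so its interval held 0.

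At kinetochores and centromeres, 6 of 7 genes were higher in 4T1-GMP with a median log2 ratio of 0.29, none by 1.5-fold, and 4 intervals lay above 0. Without the Rn45s reads 4 of 7 were higher, with a median of 0.13, and 0 intervals lay above 0. The Ndc80 complex, which binds microtubules at the kinetochore, has 4 subunits. Ndc80 was at 14.4 in NTB-GMP against 18.0 RPKM in 4T1-GMP, a log2 ratio of 0.32 (interval 0.15 to 0.51). Nuf2 was at 24.3 in NTB-GMP against 29.8 RPKM in 4T1-GMP, a log2 ratio of 0.29 (interval 0.16 to 0.43). Spc24 was at 22.4 in NTB-GMP against 28.1 RPKM in 4T1-GMP, a log2 ratio of 0.33 (interval 0.14 to 0.51). These subunits differed by nearly the same amount. Spc25, the remaining subunit, was at 15.6 in NTB-GMP against 16.9 RPKM in 4T1-GMP, a log2 ratio of 0.11 (interval -0.08 to 0.31), and its interval overlapped those of the others. Cenpa, the histone H3 variant that marks centromeres, was at 26.1 in NTB-GMP against 32.4 RPKM in 4T1-GMP, a log2 ratio of 0.31 (interval 0.16 to 0.47). The large CENP proteins of the outer kinetochore were not higher by more than counting error. Cenpe, a kinesin that moves chromosomes to the metaphase plate, was at 25.5 in NTB-GMP against 26.5 RPKM in 4T1-GMP, a log2 ratio of 0.06 (interval -0.02 to 0.13). Cenpf, which binds microtubules and dynein regulators, was at 17.8 in NTB-GMP against 11.9 RPKM in 4T1-GMP, from 2021 and 3979 reads, a log2 ratio of -0.58 (interval -0.66 to -0.50). Cenpf was next to Cdc25b the gene furthest below 0, and stood at rank 36 of the 45 by level in NTB-GMP and at rank 43 in 4T1-GMP.

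The chromosomal passenger complex, which corrects wrong attachments and later works in cytokinesis, was split. Its median log2 ratio was 0.11, with 3 of 4 genes higher, and -0.05 with 1 of 4 higher without the Rn45s reads. Aurkb, its kinase, was at 39.8 in NTB-GMP against 51.3 RPKM in 4T1-GMP, a log2 ratio of 0.37 (interval 0.26 to 0.48). Incenp, the scaffold that binds and activates this kinase, was at 54.0 in NTB-GMP against 50.2 RPKM in 4T1-GMP, a log2 ratio of -0.10 (interval -0.18 to -0.03). The kinase and its scaffold had intervals on opposite sides of 0. Birc5, survivin, was at 19.8 in NTB-GMP against 22.1 RPKM in 4T1-GMP, a log2 ratio of 0.16 (interval -0.02 to 0.34). Cdca8, borealin, was at 50.02 in NTB-GMP against 52.1 RPKM in 4T1-GMP, a log2 ratio of 0.06 (interval -0.05 to 0.17). Both of these intervals held 0.

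Of the 7 kinesins, the microtubule motors, 5 were higher in 4T1-GMP, with a median log2 ratio of 0.14, which turned to -0.02 with 3 of 7 higher without the Rn45s reads. Kif20a, which carries the passenger complex to the central spindle, was at 21.8 in NTB-GMP against 31.0 RPKM in 4T1-GMP, a log2 ratio of 0.51 (interval 0.40 to 0.62), the largest of the family. Its exons overlap Cdc23, a ligase subunit, on the other strand. Kif2c, which shortens microtubules at centromeres, was at 16.2 in NTB-GMP against 20.05 RPKM in 4T1-GMP, a log2 ratio of 0.31 (interval 0.17 to 0.45). Kif4, a motor on chromosome arms, was at 16.3 in NTB-GMP against 18.5 RPKM in 4T1-GMP, a log2 ratio of 0.17 (interval 0.06 to 0.29). Kif11, which pushes the spindle poles apart, was at 47.3 in NTB-GMP against 52.2 RPKM in 4T1-GMP, a log2 ratio of 0.14 (interval 0.07 to 0.21) that turned to -0.02 without the Rn45s reads and was also below 0 after quantile normalization. The last of these was the most abundant kinesin of the list in both libraries. Kif22, another motor on chromosome arms, was at 25.7 in NTB-GMP against 28.2 RPKM in 4T1-GMP, a log2 ratio of 0.13 (interval -0.01 to 0.28). Kif20b, a motor that works in cytokinesis, was at 26.7 in NTB-GMP against 25.2 RPKM in 4T1-GMP, a log2 ratio of -0.08 (interval -0.17 to 0.0024). Kif23, which builds the central spindle together with Racgap1, was at 25.3 in NTB-GMP against 21.2 RPKM in 4T1-GMP, a log2 ratio of -0.25 (interval -0.37 to -0.14), and was the only kinesin with an interval below 0.

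Among the spindle microtubule proteins, Hmmr, which anchors microtubules at the poles, was at 23.3 in NTB-GMP against 31.2 RPKM in 4T1-GMP, a log2 ratio of 0.42 (interval 0.32 to 0.53). Tpx2, which activates the kinase of Aurka on the spindle, was at 37.0 in NTB-GMP against 42.5 RPKM in 4T1-GMP, a log2 ratio of 0.20 (interval 0.12 to 0.28). Both had intervals above 0, although Tpx2 differed less than Aurka. Nusap1, which bundles microtubules near chromosomes, was at 30.3 in NTB-GMP against 26.8 RPKM in 4T1-GMP, a log2 ratio of -0.18 (interval -0.33 to -0.02). The exons of Nusap1 overlap Oip5 on the other strand, a centromere gene that was higher in 4T1-GMP.

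The 4 cytokinesis genes differed little, with log2 ratios from 0.07 to 0.11 that were all below 0 without the Rn45s reads (median 0.09 and -0.07). Prc1, which bundles the microtubules of the central spindle, was at 33.5 in NTB-GMP against 35.3 RPKM in 4T1-GMP, a log2 ratio of 0.07 (interval -0.03 to 0.18). Anln, anillin, the scaffold of the contractile ring, was at 21.001 in NTB-GMP against 22.1 RPKM in 4T1-GMP, a log2 ratio of 0.07 (interval -0.02 to 0.17). Racgap1, the partner of Kif23, was at 30.1 in NTB-GMP against 32.3 RPKM in 4T1-GMP, a log2 ratio of 0.10 (interval -0.0021 to 0.21). These intervals all held 0. Ect2, the exchange factor that switches on RhoA for the ring, was at 25.7 in NTB-GMP against 27.8 RPKM in 4T1-GMP, a log2 ratio of 0.11 (interval 0.02 to 0.21), or -0.05 without the Rn45s reads, and was below 0 after quantile normalization too. Top2a and Mki67, often used as proliferation markers, were the most abundant of the 45 in both libraries and differed little. Top2a, the topoisomerase that untangles sister chromatids, was at 156 in NTB-GMP against 162 RPKM in 4T1-GMP, from 8264 and 25384 reads, a log2 ratio of 0.06 (interval 0.02 to 0.10), which was -0.10 without the Rn45s reads and also below 0 after quantile normalization. Mki67, for Ki-67, which coats mitotic chromosomes, was at 136 in NTB-GMP against 129 RPKM in 4T1-GMP, from 13904 and 38905 reads, a log2 ratio of -0.08 (interval -0.10 to -0.05). With these depths the intervals were narrow, and on the deposited scale they lay on opposite sides of 0.

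The shorter genes had the higher median ratio. The gene length behind the RPKM was recovered with the reads and is, like them, a lower bound up to a common factor. A gene can thus fall among the shorter ones because its recovered length is too low. For Cdk1 it was 0.715 kb, against 4375 bases for the longest annotated transcript. The 45 genes were divided at 2.405 kb, the median of their recovered lengths. The 22 shorter genes had a median log2 ratio of 0.32, 20 of them were higher in 4T1-GMP, and all 6 genes at least 1.5-fold higher were among them. The 23 longer genes had a median of 0.10 and 16 were higher. All tested genes showed a like division at the same length: the median was 0.15 for 4942 shorter genes and -0.03 for 5417 longer ones. Among these, 63.7% of the shorter and 46.4% of the longer lay above 0, and 13.2% against 6.53% were at least 1.5-fold higher. With the longest transcript of the GENCODE M21 annotation as the length, the medians were 0.33 for shorter and 0.14 for longer mitotic genes. But 17 of 22 shorter (77.3%) and 19 of 23 longer ones (82.6%) were higher, so the shares of higher genes no longer favoured the shorter ones. All 6 genes at least 1.5-fold higher were again among the shorter ones. For all tested genes the medians were 0.14 for shorter and -0.05 for longer ones. Of them, 62.6% of the shorter and 45.3% of the longer were higher, and 12.7% and 6.67% at least 1.5-fold higher. The part of length in the differences of single genes was not tested.

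**Figure D4:**
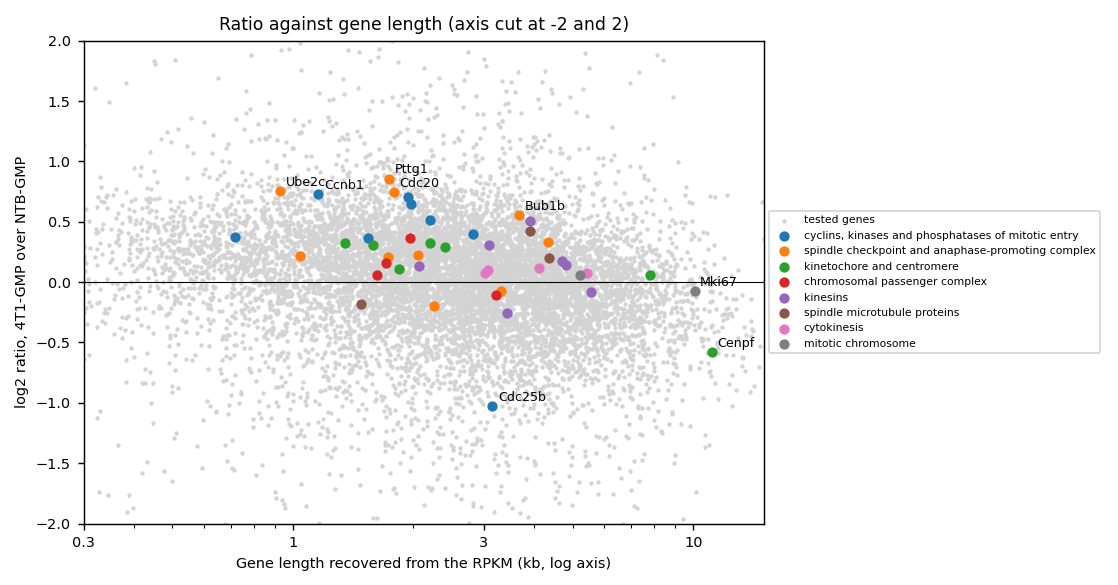
Log2 ratio, 4T1-GMP over NTB-GMP, against the recovered gene length in kb on a log axis, for all tested genes (small points) and the 45 mitotic genes (large points, by role), with the ratio axis cut at -2 and 2. The 6 mitotic genes at least 1.5-fold higher all have a recovered length, a lower bound, below 2.405 kb.

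Other lists of mitotic genes, none of them among the 45, had medians from -0.01 to 0.19. Of all tested genes, 54.7% were higher, 9.8% were at least 1.5-fold higher and 11.6% at least 1.5-fold lower. Of 8 condensin genes, which compact chromosomes, 6 were higher and none passed 1.5-fold (median log2 ratio 0.13, Ncapg2 0.41 and Ncapg 0.31 at the top, Ncaph2 -0.03 and Ncapd2 -0.33 at the bottom). Of 14 genes of cohesin, which holds sister chromatids together, and its protectors, 7 were higher, with a median of -0.01. The cohesin acetyltransferase gene Esco2 at 0.33 and Cdca5, sororin, at 0.32 were its highest log2 ratios, with Mau2 at -0.36 and Pds5b at -0.58 the lowest. Of 32 other kinetochore and centromere genes, 22 or 68.75% were higher, with a median of 0.17. The ends of that list were Oip5 at 0.72, the only gene past 1.5-fold, Ska1 at 0.50, Nsl1 at -0.34 and Cenpk at -0.36. Of 16 genes for subunits and partners of the anaphase-promoting complex, 11 were higher, none by 1.5-fold, with a median of 0.19 and log2 ratios from -0.16 for Anapc7 and -0.11 for Cdc23 to 0.33 for Ube2s and 0.38 for Anapc15. In that list 9 intervals or 56.25% lay above 0, against 36.2% of all tested genes, and 0 below, against 28%. Of 47 other spindle, midbody and mitotic genes, 28 or 59.6% were higher, with a median of 0.12. By 1.5-fold 3 of them were higher, 6.38% against 9.8% of all tested genes. Gtse1 at 0.66 and Cdca3 at 0.60 were its highest, Cit at -0.48 and Stmn1 at -0.82 its lowest. Stmn1, stathmin, which destabilizes microtubules, was the only gene of that list 1.5-fold lower, at 378 in NTB-GMP against 213 RPKM in 4T1-GMP.

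Transcription factors of mitotic genes differed in both directions. Of 23 genes of the DREAM and MuvB complexes and of related factors, 10 were higher, 43.5% against 54.7% of all tested genes. Their median log2 ratio was -0.11. By 1.5-fold 1 gene was higher, 4.35% against 9.8% of all tested genes. By 1.5-fold 3 of the 23 were lower against 11.6% of all tested genes, a share near that background. Mybl2, B-Myb, which joins MuvB to switch on late cell cycle genes, was at 22.4 in NTB-GMP against 34.7 RPKM in 4T1-GMP, a log2 ratio of 0.63. Foxm1, which joins the same complex in G2, was at 15.1 in NTB-GMP against 12.6 RPKM in 4T1-GMP, a log2 ratio of -0.26. Lin54, which binds the CHR, was at 9.38 in NTB-GMP against 10.6 RPKM in 4T1-GMP, a log2 ratio of 0.17. The factors that switch mitotic genes on thus lay on both sides of 0. Tfdp1, the partner of E2F factors, was at 126 in NTB-GMP against 181 RPKM in 4T1-GMP, while the lowest of the list were Tfdp2 at a log2 ratio of -0.77 and E2f5 at -1.09, the latter from only 38 and 50 reads.

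Genes of earlier cell cycle phases lay near the mitotic genes. Of 39 replication licensing and fork genes, 29 were higher, 74.4% against 54.7% of all tested genes, with a median log2 ratio of 0.21. In this list 1 gene was 1.5-fold higher, 2.56% against 9.8% of all tested genes. Its intervals lay above 0 for 24 genes, 61.5% against 36.2%. Fen1 at 0.66 and Gins1 at 0.57 were its highest, Cdt1 at -0.27 and Pola1 at -0.35 its lowest. Of 12 tested G1 and S-phase regulators, 8 or 66.7% were higher, with a median of 0.15. Ccne1, cyclin E1, at 0.96 from 53 and 307 reads and Cdc25a, another Cdc25 phosphatase, at 0.49 were the highest, and the G1 kinase Cdk6 at -0.44 and its partner cyclin D2, Ccnd2, at -0.61 were the lowest. Without the Rn45s reads the medians were 0.05 for replication, -0.01 for G1 and S-phase regulators, -0.03 for condensin, -0.17 for cohesin, 0.00 for other kinetochore genes, 0.03 for the ligase, -0.04 for other spindle genes and -0.27 for the transcription factors.

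**Figure D5:**
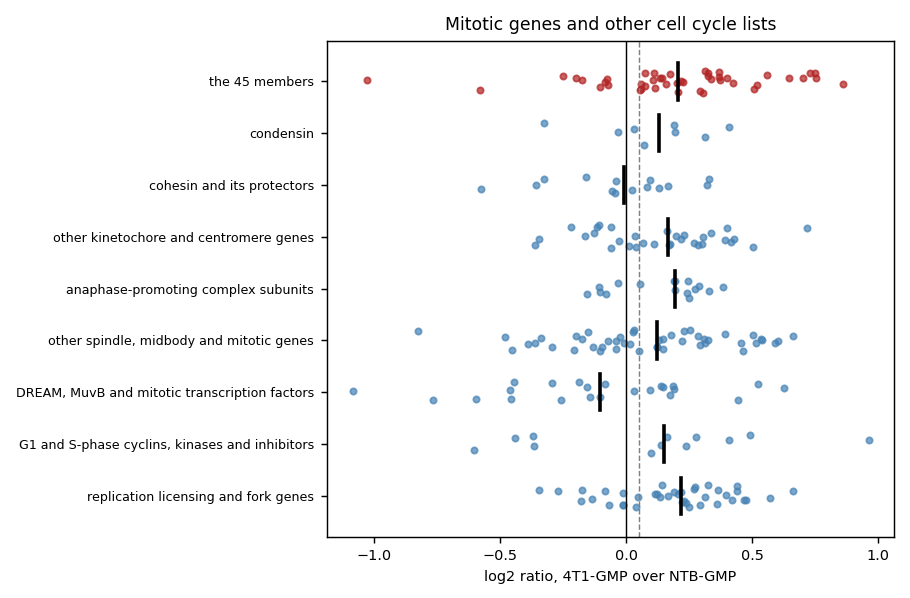
Log2 ratio, 4T1-GMP over NTB-GMP, of the 45 mitotic genes (top row, red points) and of the tested genes of 8 other lists (blue points), with the median of each row as a bar and that of all tested genes as a dashed line. The 45 genes and the replication genes both have a median of 0.21, and the transcription factors, the lowest row, one of -0.11.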

How the data were processed

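The authors deposited RPKM, with 1 value per gene symbol for each of the 2 libraries. The submitters' processing notes name mm10, CASAVA 1.8.2, cutadapt 1.2.1, TopHat2 2.0.13, Picard 1.97, HTSeq 0.6.1 and edgeR 3.12.1 without their roles. Gene lengths, the strand setting of the counting and any normalization factor are not given in the sources used here. Read counts were recovered from the ratios of the RPKM. They and the recovered gene lengths are lower bounds up to a common factor, which can only widen an interval. The library sizes came out as 10180365 and 30016263, not as whole numbers before rounding, as a size multiplied by a factor would be.

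The log2 ratio used RPKM + 0.1, was computed where the mean RPKM reached 1, and was called at 1.5-fold. No test was made, since each group had 1 library. The 45 genes and all other lists were chosen with earlier results of these data known. All 45 genes were named, with the 2 highest and the 2 lowest of each other list and Foxm1, Mybl2 and Lin54. Exons of 11 of the 45 genes overlap those of a protein-coding gene on the opposite strand and 0 those of one on the same strand, in GENCODE M21. As alternatives, the pseudocount was set to 1 or 0.01, the filter was dropped (all genes above 0) or raised to a mean RPKM of 5, and the scaling was changed to library sizes without Rn45s, to ratios centred on the median of all tested genes or to quantile normalization. Annotated transcript lengths and the count of motifs within 50 bases of the start were added after seeing the data. The procedure was tested on simulated data. Python 3.11.15, numpy 2.4.6, pandas 2.3.3, scipy 1.17.1 and matplotlib 3.10.9 were used.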

Additional observations from a re-analysis of the deposited data

How the results depend on the processing

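With pseudocounts of 1 and 0.01, all genes above 0 or a mean RPKM of at least 5, the counts of the 45 genes that were higher or past 1.5-fold stayed at their values. The scaling of the libraries moved them. Without the Rn45s reads, 2 genes were at least 1.5-fold higher (5.73% of all tested genes), 2 at least 1.5-fold lower (17%) and 25 higher at all (39.2%), 16 had an interval above 0, and the median log2 ratio was 0.0435. After quantile normalization, 2 were at least 1.5-fold higher (9.48%), 2 at least 1.5-fold lower (10.3%) and 28 higher at all (50.5%), and the median was 0.0728. Under both of these scalings the share of the 45 past 1.5-fold higher was no larger than that of all tested genes. With only 2 genes past it, the shares were not told apart. Centred on the median of all tested genes, 2 were at least 1.5-fold lower (13.1%). Without the Rn45s reads the sign turned for the 11 genes named in the report, among them 3 with an interval above 0 on the deposited scale, Kif11 (-0.0222), Ect2 (-0.0493) and Top2a (-0.105), and for the medians of kinesins (-0.0222), the passenger complex (-0.055) and cytokinesis (-0.0739). After quantile normalization it turned for 8 genes, Kif11 (-0.0506), Ect2 (-0.0062), Top2a (-0.20), Cenpe (-0.0581), Cdca8 (-0.14), Prc1 (-0.0489), Anln (-0.0136) and Racgap1 (-0.0149), and for the medians of the passenger complex (-0.0336) and cytokinesis (-0.0143). No paired analysis was possible because there is 1 library a group, which also leaves no replicate to drop. Among the 45, Cdc25c, at 116 reads in NTB-GMP, had the widest interval.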
